A study of Drosophila melanogaster with 40 samples.

Results

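The peaks described here are 4 regions of the early Drosophila genome bound by Capicua (Cic) whose signal departed from that of most peaks in at least 1 comparison. They are the peaks that the authors annotated to betaTub60D, CG3168, Cyt-b5-r and CG42807, 4 of 103 in the final peak list. They were chosen by gene symbol, with their signal in the 6 conditions already known: a signal that was higher, or not lower, with ERK activity, or that differed between lines kept in the dark. Those values are therefore given as a description, without a test. Called weak when chosen, 3 of the 4 peaks lay in the lowest 25% of mean wild type signal. The CG42807 peak instead ranked 30 of 103 by that signal, and 55 by fold enrichment over untagged embryos.

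Cic is an HMG-box repressor that keeps developmental genes silent. ERK, the kinase at the end of the Ras pathway, phosphorylates Cic, which then leaves its sites or its nucleus, and repression ends. Genes of the embryo's poles such as tll and hkb, which are switched on by the receptor Torso, are the classical example. None of the 4 annotated genes is among the known Cic targets listed here, and their annotated roles are a tubulin, a relative of cytochrome b5 and a pair of uncharacterized proteins.

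Chromatin was immunoprecipitated with an antibody against GFP from whole embryos early in nuclear cycle 14, laid over 3 to 4 h in darkness and fixed for 15 min. ChIP signal holds no expression markers against which the stage could be checked. OptoSOS embryos carried UAS-OptoSOS and tagged Cic (CicsfGFP), each over a gal4 chromosome of the maternal triple driver, and received no light (n = 3 libraries), 1 min (n = 2), 5 min (n = 3) or 30 min (n = 3) of blue light. In this system blue light brings part of SOS, which activates Ras, to the cell membrane, and with it ERK activity wherever the maternal driver put the construct. TorD4021 embryos (n = 3) carried a gain-of-function Torso allele over a wild type chromosome, and CicsfGFP over an untagged chromosome. Wild type embryos (n = 3) carried CicsfGFP over an untagged chromosome and nothing else, and OreR embryos (n = 3) had no tag. Every tagged group thus had the tagged allele on 1 chromosome only, as the labels give the genotypes.

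Signal was given as 1 matrix per condition in which the replicates were already combined. The spread between embryo collections is therefore unknown, and no comparison below has a test. Values are coverage over noise, the mean read coverage within 250 bp of the window centre divided by the mean coverage of the authors' noise peaks in that condition, so that 1 is the noise level. The matrices hold z-scores, so this scale was inferred from their values, with the lowest taken as no coverage. It was not checked against the reads. Intervals are exact 95% intervals on read equivalents and cover counting error only. A value called higher or lower beyond counting error has an interval of the ratio that excludes 1. The median peak of the list had 7.41 in no light, 9.93 after 1 min, 3.62 after 5 min, 2.54 after 30 min, 3.12 with active Torso and 6.22 in wild type. Known targets had the same direction: 13 peaks were annotated to 7 of 10 listed target genes (tll, hkb, ind, aos, pnt, sty and zen), all 13 were lower beyond counting error after 5 and after 30 min of light, and their medians were 2.28-fold and 5.08-fold lower than in no light. Of all 103 peaks, 93.2% and 95.1% were lower in these comparisons, with medians 2.02-fold and 3.11-fold lower, so the targets' count is near that of the list.

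The betaTub60D peak stood nearest to a gene end. It covered 187 bp of chromosome 2R (24313219 to 24313405, dm6) and began 120 bp past the end of betaTub60D, which encodes a beta tubulin of the microtubules that is made in the developing mesoderm. The authors classed it as distal intergenic, 7338 bp from the start site of the gene, and no other RefSeq gene lay within 10000 bp. Its caller values, which here and below are the authors', were among the lowest of the list. Fold enrichment was 5.64 over untagged embryos (rank 84 of 103) and pileup 44.1 (rank 98). No other MACS2 call lay within 10000 bp.

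Cic signal at betaTub60D was highest where Torso was constantly active. Coverage over noise was 3.25 in no light, 4.02 after 1 min, 4.36 after 5 min and 3.11 after 30 min, and 7.85 (6.87 to 8.92) with active Torso against 2.94 (2.33 to 3.66) in wild type. These values rest on 74 to 233 read equivalents each. The active Torso value stood apart from the other 5, which ranged from 2.94 to 4.36. With active Torso the peak ranked 11 of 103, against rank 100 in wild type. The ratio of active Torso to wild type was 2.67 (2.05 to 3.47), the highest of all peaks, where the median peak had 0.455. Ordered by level, active Torso was above 5 min by 1.80 times (1.44 to 2.27), and no other step between neighbouring conditions was beyond counting error.

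In light the betaTub60D signal was highest at 5 min, and at 1 and 30 min it did not differ from no light beyond counting error. After 1 min it had 1.23 times the no light signal, with an interval of 0.902 to 1.68. The ratio was 1.34 at 5 min (1.01 to 1.77) and 0.955 at 30 min (0.695 to 1.30). The 5 min value was the only one of the 103 peaks that was higher beyond counting error, and it missed that mark with a 99% interval and with a window of 150 bp on either side. After 30 min the peak had 0.713 times the signal at 5 min (0.525 to 0.960). The 30 min ratio to no light lay above 1, at 1.09 and 1.11, with 500 bp on either side and when divided by the median flank.

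The 4 OptoSOS profiles of the betaTub60D peak shared a feature. Coverage over noise had 2 summits with a narrow gap between them. In no light the summits reached 7.34 and 6.83 and the gap 2.54, after 1 min 9.41 and 7.64 around 1.98, after 5 min 10.4 and 10.1 around 2.62, and after 30 min 7.30 and 6.72 around 1.21. The gap lay 70 bp from the window centre in no light, 5 min and 30 min and 80 bp from it after 1 min. Its depth, as a percentage of the profile maximum, was 58.5, 60.2, 72.3 and 75.5 in this order, and it was the deepest gap of any of the 103 peaks in each of these matrices. At 30 min the next deepest, at Pli, had nearly the same depth, 75.4.

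With active Torso the gap at betaTub60D was shallow, and in wild type none stood out. Active Torso had summits of 16.3 and 16.4 around 13.2, a depth of 18.4% (rank 62 of 103). Placed on the no light profile by shape, the active Torso window was shifted by 90 bp (Pearson r 0.933 over 300 bp on either side), which puts its shallow gap beside the place of the deep one. In wild type the deepest dip within 250 bp was 10.3% (rank 55) and lay 220 bp from the summit, outside the peak itself. The deep gap was thus present in the dark as well as in light in the OptoSOS line. Differences between lines and between libraries cannot be told apart here.

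**Figure D1:**
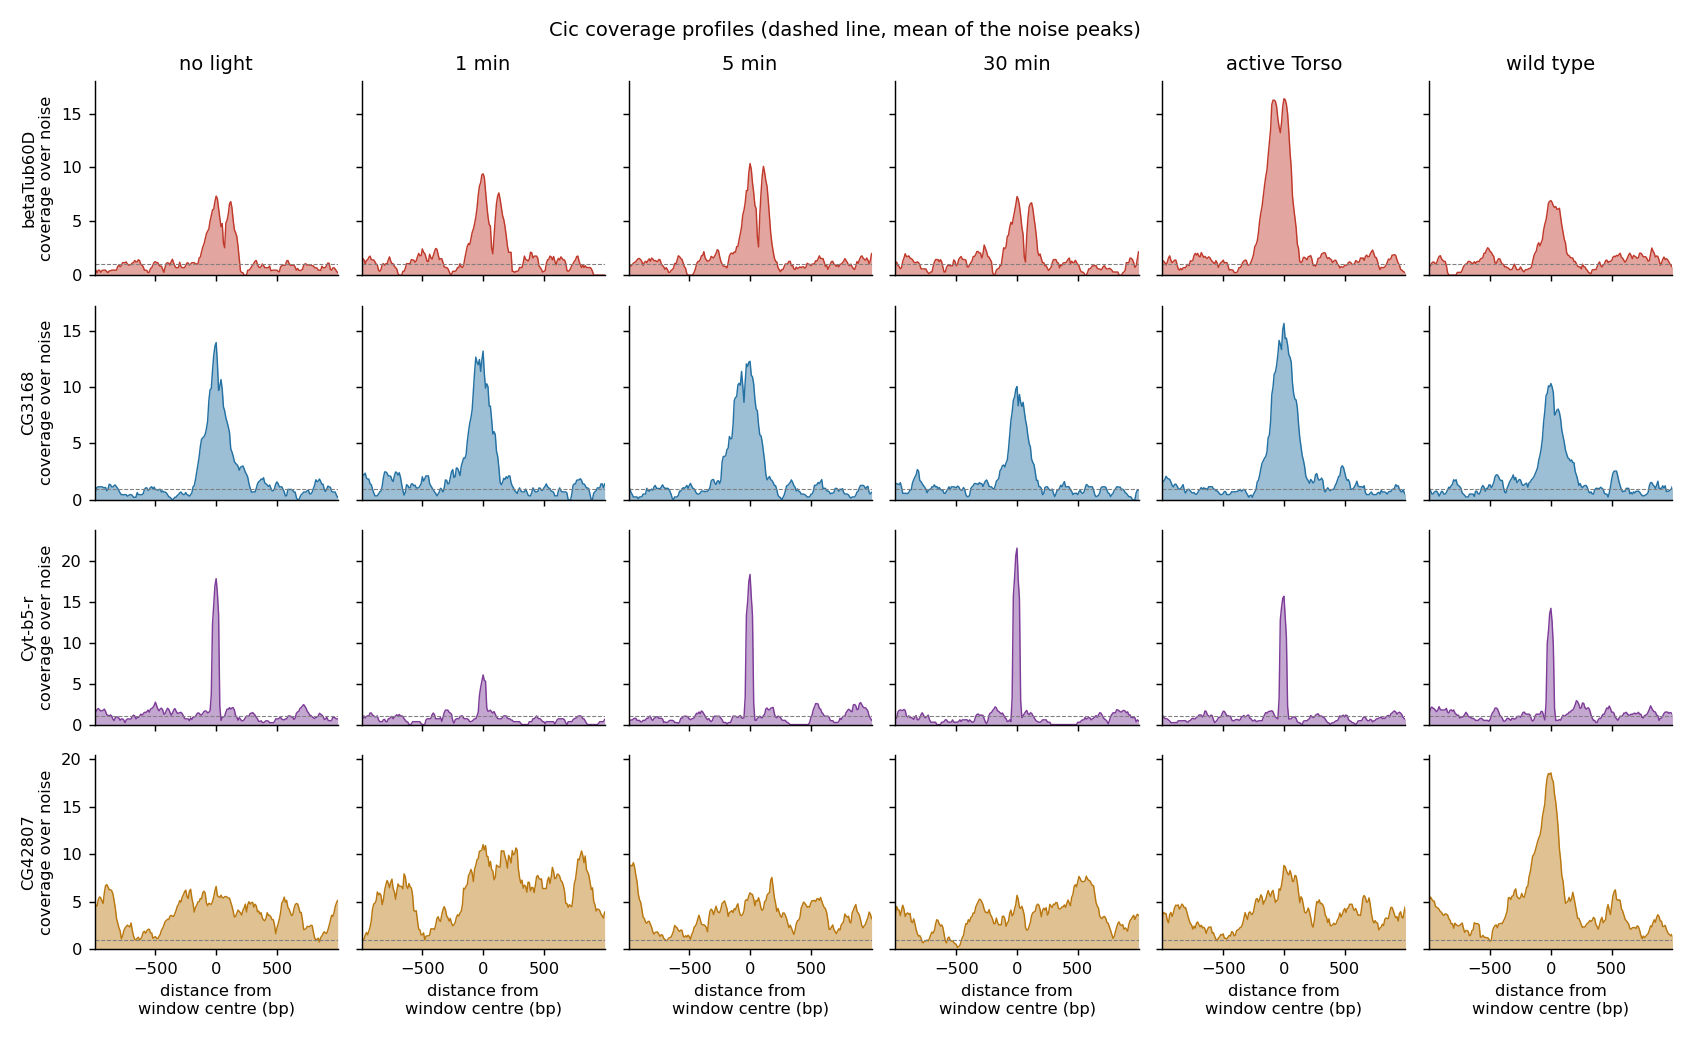
Profiles of Cic coverage over noise (y axis, 1 is the mean of the noise peaks) by distance from the window centre in bp (x axis), for the 4 peaks in rows and the 6 conditions in columns; each panel is 1 combined matrix, windows were centred separately in each condition, and y axes are shared within a row. The betaTub60D peak has 2 summits with a deep gap in the OptoSOS conditions, the Cyt-b5-r peak is a narrow block everywhere, and the CG42807 region has signal across the whole window.

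The CG3168 peak lay between neighbouring genes. It covered 287 bp of chromosome X (6741121 to 6741407, dm6), 1135 bp upstream of the start site of CG3168, which the authors list as an uncharacterized protein. On the other side RpL17, a gene of the large ribosomal subunit, began 130 bp away in RefSeq, so that RpL17 was the nearer gene. The authors gave this peak no class of position. Its fold enrichment of 7.10 was near the median of the list, 7.19 (rank 53 of 103), and its pileup was 62.9 (rank 67). The next MACS2 call was 81488 bp away, at the peak of Atx-1.

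Cic signal at CG3168 stayed level through 5 min of light, when most peaks were lower than in no light, and was highest with active Torso. Coverage over noise was 5.42 in no light, 5.67 after 1 min, 5.93 after 5 min and 3.98 after 30 min, and 6.91 (5.999 to 7.93) with active Torso against 4.51 (3.74 to 5.38) in wild type. Each value rests on 95 to 205 read equivalents. Neighbouring values in the order of the levels did not differ beyond counting error at any of the 5 steps. The ratio to no light was 1.05 after 1 min (0.817 to 1.34) and 1.09 after 5 min (0.870 to 1.37), at times when most peaks were higher and then lower. By the maximum within 250 bp in place of the mean these ratios were 0.946 and 0.881, below 1.

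After 30 min the CG3168 signal was lower, at 0.734 times that of no light (0.563 to 0.950) and 0.672 times that of 5 min (0.516 to 0.872). The median peak had 0.322 for 30 min against no light, far lower than CG3168, and 0.680 for 30 min against 5 min, close to it. With active Torso the signal was higher, at 1.53 times that of wild type (1.22 to 1.94), the second highest ratio of all peaks after betaTub60D. CG3168 and betaTub60D thus had the same direction with active Torso. Across the 6 conditions their levels followed each other with a Pearson r of 0.851, which describes 6 points that share their libraries and noise levels.

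The CG3168 profile kept its shape. It had 1 summit with shallow gaps, with a width at 50% of the maximum of 160 bp in no light, 190 bp after 1 min, 220 bp after 5 min, 160 bp after 30 min, 220 bp with active Torso and 180 bp in wild type. Aligned by shape, any 2 conditions matched with a Pearson r between 0.924 and 0.983. Signal 600 to 1000 bp from the centre was near the noise level, between 0.725 and 1.25. The untagged level that the caller used at its summit, with its added 1, was 1.14 times the lowest of the list.

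The Cyt-b5-r peak lay inside another gene. It covered 227 bp of chromosome 2L (16785757 to 16785983, dm6) within the body of Mhc, the muscle myosin heavy chain gene, and the authors placed it in intron 16 of 18 of that gene. Cyt-b5-r itself, a gene related to cytochrome b5, lay 2791 bp away, with its start site at 4738 bp. Fold enrichment was 6.26 (rank 68 of 103) and pileup 49.0 (rank 88). The nearest other MACS2 call was 454851 bp away.

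By the mean within 250 bp Cyt-b5-r had the second lowest wild type signal, and the levels of 5 of the 6 conditions overlapped. Coverage over noise was 2.89 in no light, 1.38 after 1 min, 2.76 after 5 min and 3.11 after 30 min, and 2.38 with active Torso against 2.60 in wild type. The 1 min value stood below the others, by 1.73 times from active Torso, the next in order (1.096 to 2.80). Each value rests on 27 to 86 read equivalents. The ratio to no light was 0.955 after 5 min (0.691 to 1.32) and 1.08 after 30 min (0.777 to 1.48), and at 30 min it was the highest ratio of the list. With 500 bp on either side the 30 min ratio was 0.858, below 1 and below that of betaTub60D. Active Torso to wild type was 0.917 (0.656 to 1.31), at rank 9 of 103, and above 1, at 1.101 and 1.104, with 150 bp on either side and by the maximum. At 1 min the ratio was 0.477 (0.300 to 0.748), the lowest of the list. The 1 min matrix rests on 2 libraries, and its noise coverage was the lowest, 2.83 reads against 3.47 to 4.33 in the other conditions.

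The Cyt-b5-r signal was concentrated in a steep block no wider than 1 read. The central 90 bp held 66.4% of the signal within 250 bp in no light, 50.4% after 1 min, 70.9% after 5 min, 73.3% after 30 min, 72.7% with active Torso and 57.7% in wild type, where the median peak had 28.2% to 32.6%. The width at 50% of the maximum was 60 bp in all 6 conditions, where the median peak had 210 to 250 bp and reads were 74 bp long. Within 20 bp, coverage changed by 77.5% of the maximum in no light, 60.5% after 1 min, 71.0% after 5 min, 71.4% after 30 min, 77.2% with active Torso and 74.4% in wild type. This was the steepest change of all peaks in every condition but wild type, where it ranked 2. The maximum was 77.4 reads deep in no light, 17.2 after 1 min, 71.7 after 5 min and 74.9 after 30 min. It was 67.6 reads deep with active Torso and 55.9 in wild type. Over noise the maximum was 17.9 in no light and 14.2 in wild type, where the median peak had 15.3 and 13.04. It was 18.4 after 5 min, 21.6 after 30 min and 15.7 with active Torso, beside medians of 7.16, 5.05 and 6.23. After 1 min it was 6.08, the lowest of the list, where the median peak had 19.6.

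Outside that block the Cyt-b5-r window held little more than noise. Between 50 and 250 bp from the centre, coverage over noise was 1.18 in no light, 0.832 after 1 min, 0.975 after 5 min, 1.01 after 30 min, 0.789 with active Torso and 1.34 in wild type. These were the lowest values of the 103 peaks in each condition but 30 min, where it ranked 3 from the lowest. Median values of the list ranged from 2.13 to 8.10. Unshifted profiles of any 2 conditions matched with a Pearson r between 0.890 and 0.991. The peak call kept all duplicate reads, and their part in this block was not tested. Counting intervals treat all reads as separate molecules.

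The CG42807 peak differed from the other 3 in mean wild type signal and breadth. It covered 536 bp of chromosome 2R (13566548 to 13567083, dm6), distal intergenic by the authors' classes and 5461 bp from the start site of CG42807, an uncharacterized protein. RefSeq placed no gene over it, and CG42807 lay 3512 bp away and CG13334 5780 bp away on the other side. Fold enrichment over untagged embryos was 6.98 (rank 55 of 103), below the 7.10 of CG3168, while pileup was 117.6 (rank 27). The untagged level that the caller used at its summit, with its added 1, was 2.15 times the lowest of the list, at rank 5. The other 3 peaks had 1.01 to 1.14. Within 10000 bp there were 3 other MACS2 calls, the nearest 542 bp away, with fold enrichments of 2.61, 3.92 and 2.99. Of the 103 peaks, 12 had as many as that.

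Cic signal at CG42807 was high in wild type and lower in the dark OptoSOS embryos. Coverage over noise was 5.02 in no light, 8.002 after 1 min, 4.80 after 5 min and 3.63 after 30 min, and 5.72 (4.89 to 6.65) with active Torso against 9.56 (8.43 to 10.8) in wild type. Each value rests on 87 to 259 read equivalents. The values at 1 min and in wild type were high and their intervals overlapped, and 1 min was above active Torso by 1.40 times (1.12 to 1.76). The ratio of no light to wild type was 0.525 (0.427 to 0.645), the lowest of all peaks, where the median was 1.19. The next lowest were Shroom with 0.740 (0.587 to 0.933) and CG13716 with 0.741 (0.571 to 0.964), and no other peak was lower beyond counting error. With 500 bp on either side the CG42807 ratio was 0.658, and by the maximum 0.356, both outside its interval. The part of the high untagged level in the difference between the lines was not tested.

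Beside no light, CG42807 was higher at 1 min and lower at 30 min. The ratio to no light was 1.59 after 1 min (1.26 to 2.01), at rank 6 of 103, then 0.956 after 5 min (0.749 to 1.22) and 0.722 after 30 min (0.550 to 0.950). Active Torso had 0.598 times the wild type signal (0.488 to 0.726), a fall at rank 27 of 103 and so inside the general trend. The ratios at 1, 5 and 30 min are all taken to a no light level that was itself low beside wild type. At 1 min the signal was not above wild type, which had 1.19 times the 1 min level (0.977 to 1.47).

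The CG42807 window held signal well beyond the peak, and a tall summit stood out in wild type. The maximum was 6.81 times noise in no light, 11.03 after 1 min, 9.13 after 5 min and 7.70 after 30 min, and 8.83 with active Torso against 18.6 in wild type. The highest point lay at -900 bp from the centre in no light, -960 bp at 5 min and 570 bp at 30 min, and not at the peak. Another MACS2 call spanned -1020 to -862 bp from the caller's summit of this peak, partly inside the window. Whether the signal far from the centre belongs to that call was not tested. Signal 600 to 1000 bp from the centre was 3.17 in no light, 5.88 after 1 min, 3.31 after 5 min, 2.95 after 30 min, 3.49 with active Torso and 2.73 in wild type, ranks 4 to 15 of 103. The median over peaks lay between 1.34 and 1.64 in these flanks. By shape, 5 of the 6 comparisons of this peak could not be placed on the same position, so its ratios may not compare the same position.

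**Figure D2:**
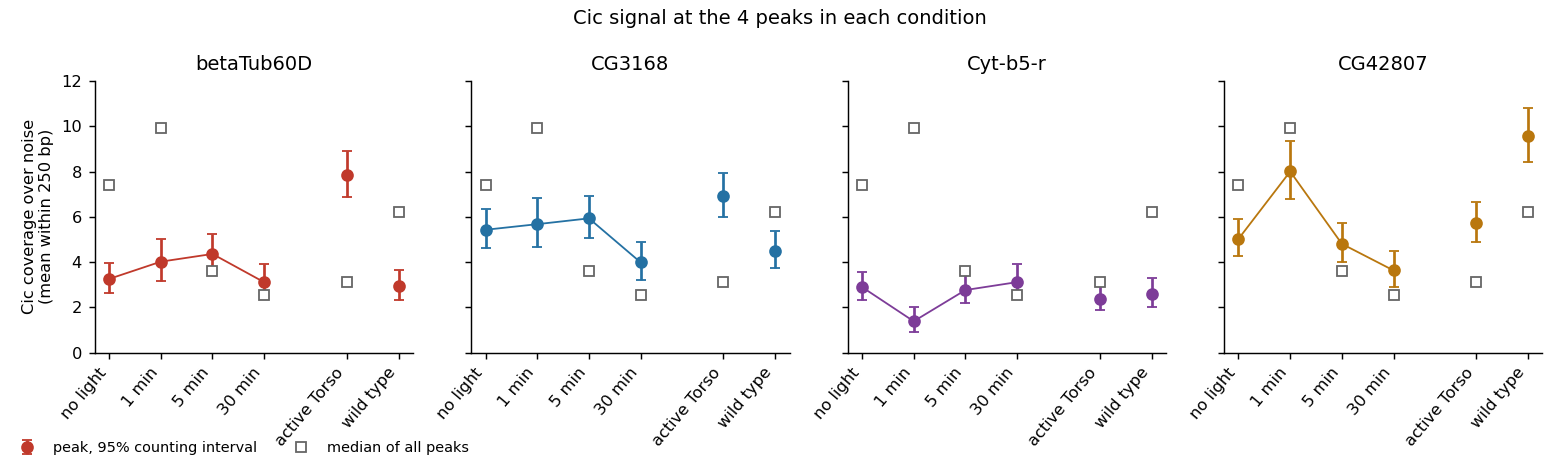
Coverage over noise (y axis, mean within 250 bp of the window centre) in the 6 conditions (x axis) for each of the 4 peaks, as filled points with 95% counting intervals, beside the median of the 103 peaks as open squares; lines join the light series. The median falls between 1 and 5 min of light, while betaTub60D (3.25, 4.02 and 4.36) and CG3168 (5.42, 5.67 and 5.93) do not fall until after 5 min and are highest with active Torso, Cyt-b5-r dips at 1 min, and CG42807 is highest in wild type.

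Set against the whole list, the 4 peaks lay partly with the majority and partly against it, and since they were chosen on these values nothing is read from their counts. In no light against wild type 46.6% of the 103 peaks were higher beyond counting error and 2.91% lower, and of the 4 none was higher and CG42807 was lower. In 1 min against no light 63.1% were higher and 0.971% lower, and CG42807 was higher and Cyt-b5-r lower. In 5 min against no light 0.971% were higher and 93.2% lower, and betaTub60D was higher and none of the 4 lower. Divided by the median flank in place of the noise level, 4 rather than 2 of them lay above 1 in that comparison. In 30 min against no light 0% were higher and 95.1% lower, and CG3168 and CG42807 were lower. In active Torso against wild type 2.91% were higher and 87.4% lower, and betaTub60D and CG3168 were higher and CG42807 lower. From 5 to 30 min 0% were higher and 50.5% lower, and betaTub60D and CG3168 were lower. The 3 light comparisons share the no light matrix, and those of no light and active Torso share the wild type matrix.

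Most other weak peaks lost signal under ERK activity. The other 23 peaks in the lowest 25% of wild type coverage had a median ratio of 0.538 after 5 min, 0.391 after 30 min and 0.458 with active Torso, beside 0.494, 0.322 and 0.455 over all peaks. Of these 23, 20 were lower beyond counting error after 5 min, 20 after 30 min and 19 with active Torso, and none was higher in these comparisons.

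**Figure D3:**
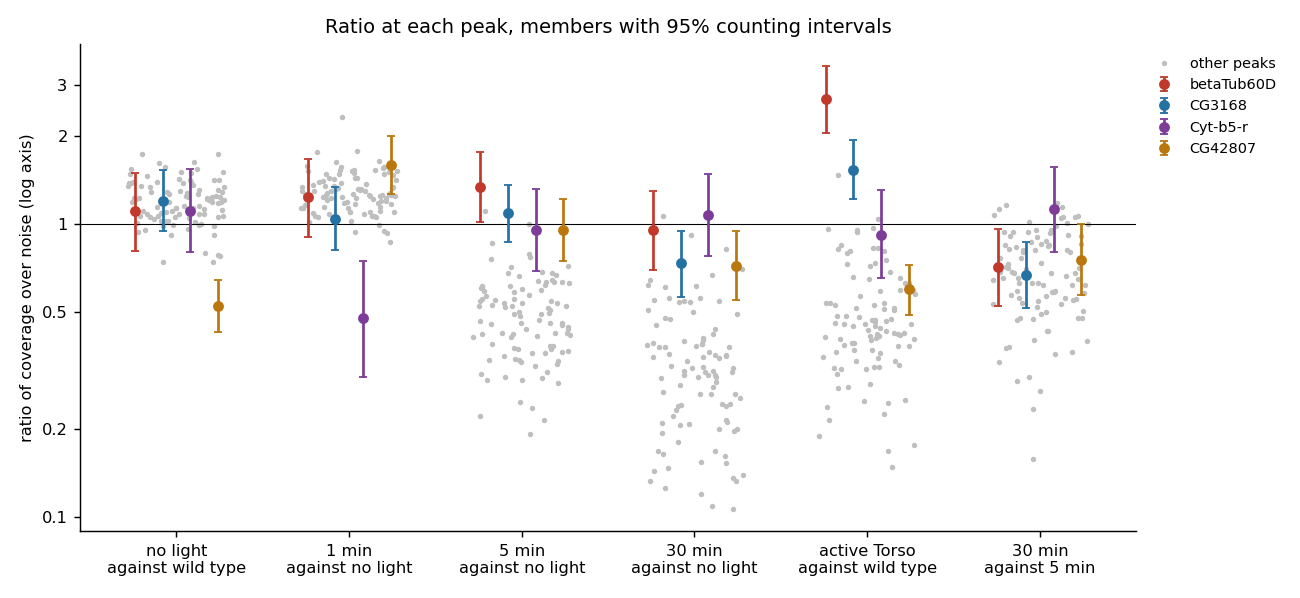
Ratio of coverage over noise (y axis, log scale) in each of the 6 comparisons (x axis) for the other 99 peaks as grey points and the 4 peaks as coloured points with 95% counting intervals; the line marks a ratio of 1. After 5 and 30 min of light and with active Torso most grey points lie below 1, and betaTub60D has the highest ratio after 5 min (1.34) and with active Torso (2.67).

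Few peaks outside the group came near it, and those were seen after the values were known. Doc3, which encodes a T-box transcription factor, was the third peak that was higher beyond counting error with active Torso, at 1.47 times wild type (1.18 to 1.82), but it had 0.683 of its no light signal after 5 min (0.547 to 0.844) and 0.327 after 30 min (0.240 to 0.434). A peak without a gene symbol on chromosome 3R (14391356 to 14391520, dm6), the weakest of the list by score, had a ratio of 1.11 to no light at 5 min, with an interval of 0.784 to 1.57, and 1.06 at 30 min (0.728 to 1.51). Its ratio of active Torso to wild type was 1.04 (0.736 to 1.45). By Pearson r over the 6 conditions the peaks most like betaTub60D were Doc3 (0.354) and that unnamed peak (0.103), and those most like CG3168 were Doc3 (0.658) and pnt peak 1 (0.498). For CG42807 they were S (0.842) and tll peak 3 (0.842). The best for Cyt-b5-r were negative, with mtd at -0.210 and CG13716 at -0.230. By this measure no peak outside the group came close to betaTub60D or Cyt-b5-r. Both were chosen for departing from the other peaks in these same values, so nothing is read from this. It also depends on the measure: by Euclidean distance of log2 coverage the unnamed peak was the nearest to Cyt-b5-r, with a Pearson r of -0.953.

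**Figure D4:**
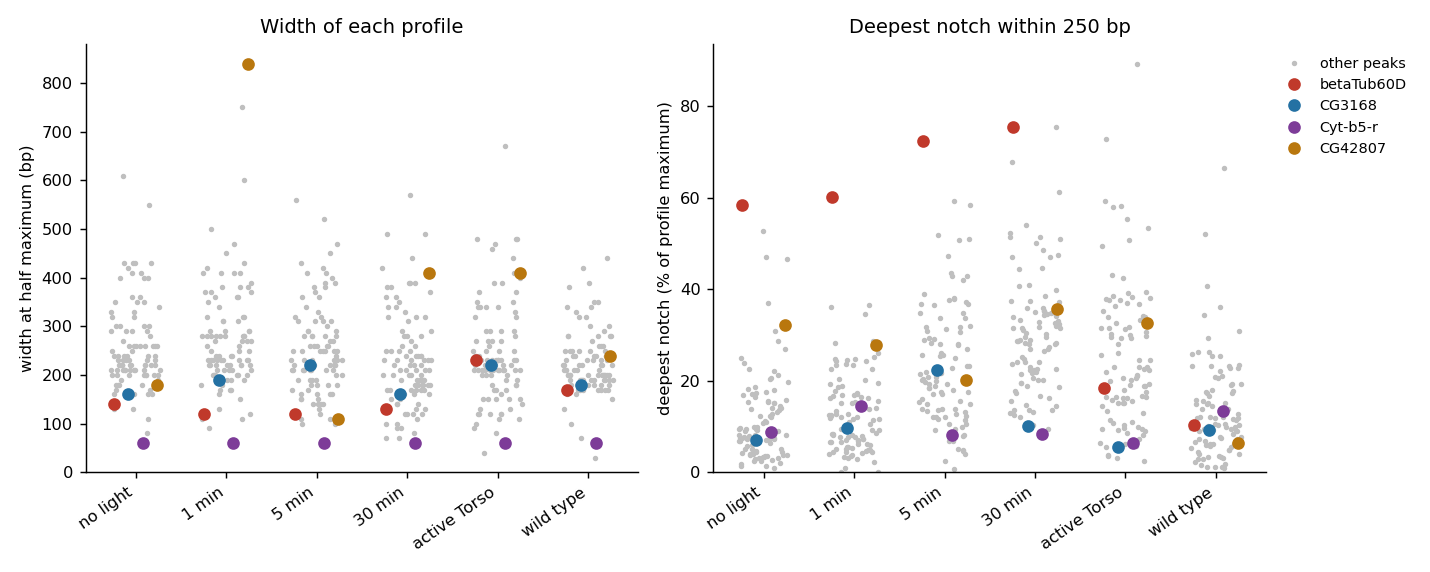
Shape of the 103 profiles in the 6 conditions (x axis), with the width at 50% of the maximum in bp on the left and the deepest gap within 250 bp of the centre as a percentage of the profile maximum on the right; grey points are the other 99 peaks and coloured points the 4 peaks. Cyt-b5-r is 60 bp wide in every condition, and betaTub60D has the deepest gap in the 4 OptoSOS conditions but not with active Torso or in wild type.

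Among listed relatives of 3 of the annotated genes no other gene had a Cic peak. Of 11 tubulin genes only betaTub60D was annotated to a peak, of 7 cytochrome b5 and fatty acid desaturase genes only Cyt-b5-r, and of 8 genes listed as solute carrier 22 family or related, CG3168 included, only CG3168. Of the protein-coding RefSeq genes 0.609% (85 of 13962) were annotated to a peak, and each list was built on a gene that has one. RefSeq symbols matched all 11, 6 of the 7 and 7 of the 8 listed genes. Which gene any of the 4 peaks serves was not tested.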

How the data were processed

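Per the submitters' processing notes, reads were handled with Trim Galore, BWA 0.7.17-r1188, SAMtools, MACS2 and ChIPseeker on dm6. Per the file headers, MACS 2.1.2 called peaks on pooled wild type against pooled untagged libraries (6994179 and 5712080 tags of 74 bp, extension 145 bp, all duplicates kept, q threshold 0.01). Fold enrichment (a ratio), pileup (a signal), −log10 p and q values and a score were deposited by the authors for each peak. Pileup values are not whole read counts and are given without a unit. The untagged level is the pileup plus 1 divided by the fold enrichment. Since the caller adds 1 to both parts of a fold enrichment, this level includes that 1. Its ratios to the lowest of the list are therefore smaller than they would be without it. How 468 calls were filtered to 103 is not stated.

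For each condition 1 matrix of z-scores was deposited (a score per 10 bp window, 201 windows, scaled by the authors on noise peaks), with replicates combined. Columns were taken in the order of the peak list. The wild type maximum and the caller's pileup then ranked the peaks alike (Spearman rho 0.954 over 103 peaks, a description). All z-scores lay on whole steps above the lowest value. Steps were read as read bases and the lowest value as no coverage, and coverage was divided by that of the noise peaks, 2.83 to 4.33 reads. Windows were centred by the authors on the highest point near the peak in each condition. Read equivalents are read bases divided by 74. Ratios have exact conditional binomial intervals. They were tried on simulated counts with counting error only. That cannot show how they hold with spread between replicates or with duplicate reads. A window was placed by shape where Pearson r was at least 0.7 within 400 bp. The gap of a profile is its deepest dip within 250 bp below the lower of the highest points within 100 bp on either side. The peaks, gene lists and named genes were chosen with earlier results of these data known. The rule named the 4 peaks, the 2 most alike per peak, the nearest other peak and call, and list members. Input libraries were not used here, and untagged libraries enter only through the authors' caller values. No genome sequence was used, so no motif was searched. Analyses used Python 3.11.15, numpy 2.4.6, pandas 2.3.3, scipy 1.17.1 and matplotlib 3.10.9. RefSeq gene positions are those of Release 6.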

Additional observations from a re-analysis of the deposited data

Results flagged for a closer look

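At 2 peaks the ratio for 30 min of light and the ratio for active Torso lay on opposite sides of 1. At CG3168 the ratio of coverage over noise was 1.53 for active Torso against wild type and 0.734 for 30 min of light against no light. At betaTub60D the ratio was 2.67 for active Torso against wild type and 0.955 for 30 min of light against no light, and the interval of the light value includes 1. That light value was above 1 with 500 bp on either side (1.09) and when divided by the median flank (1.11). At the earlier times both peaks lay on the same side as active Torso, betaTub60D with 1.23 at 1 min and 1.34 at 5 min and CG3168 with 1.05 and 1.09, although CG3168 was below 1 at both times by the maximum. Of the 103 peaks, 3 had this pattern, the third being Doc3. The difference between the effects was not tested, since each condition had 1 combined matrix.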

How the results depend on the processing

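Of 24 ratios at the 4 peaks, none that was beyond counting error changed side of 1 under any alternative tried. Their size did move at CG42807, to values outside the main interval. No light against wild type was 0.658 with 500 bp on either side and 0.356 by the maximum. Active Torso against wild type was 0.475 by the maximum. Over all 115 values, 103 kept their side of 1 and 12, all of ratios with intervals that include 1, did not. Dividing by the median flank gave 4 peaks above 1 after 5 min in place of 2, and 2 after 30 min in place of 1. The higher call of betaTub60D at 5 min was lost with a 99% interval and with 150 bp on either side, where 0 peaks were higher. Counts of peaks beyond counting error, higher and lower together, stayed within 1.5 times in every comparison. Small counts in 1 direction moved more. The 3 lower peaks in no light against wild type became 1 with a 99% interval, 4 with 150 bp and 2 with 500 bp on either side. All 4 peaks kept a MACS2 call at a −log10 q of at least 5. By Euclidean distance 2 of the 8 pairs of alike peaks remained. Of the 24 ratios, 5, all at CG42807, could not be placed by shape. The alternatives without noise scaling, with other Cic motifs or motif windows, and leaving out a replicate were not run, because the matrices hold neither depth nor replicates and no genome sequence was used. No paired analysis was possible because replicates were combined before deposit. Depth limits the weak peaks most: 27 to 86 read equivalents lay under each Cyt-b5-r value.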
